A study of Mus musculus with 31 samples.

Results

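The cytosolic ribosomal protein genes encode the proteins of the ribosome outside the mitochondria. They were taken as every gene of the array whose symbol starts with Rpl or Rps, leaving out the ribosomal S6 kinases (Rps6k) and symbols marked as pseudogenes (-ps). The rule found 88 genes of the 20832 genes that the array's RefSeq accessions named, and it used no measured value. By name, 31 encode proteins of the small subunit (40S), 43 encode proteins of the large subunit (60S), and 3 encode the proteins of its stalk (Rplp0, Rplp1 and Rplp2). A further 9 are paralogues of such genes (Rpl3l, Rpl7l1, Rpl10l, Rpl22l1, Rpl32l, Rpl36al, Rpl39l, Rps4l and Rps27l). The remaining 2, Rps19bp1 and Rps23rg1, carry the prefix but are not ribosomal proteins. The 88 genes had 176 probes, and the brightest probe stands for each of the 53 genes with more than 1.

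The samples were brains of NMRI mice aged 5 days, hybridized on 31 Agilent arrays that each took a Cy3 and a Cy5 sample. Each sample was RNA pooled from 6 hemispheres. The Mg arrays set mice given 600 mg/kg magnesium sulphate (MgSO4, Cy5) against control mice (Cy3), with 4 arrays at 3 h after injection, 7 at 6 h, 4 at 12 h and 4 at 24 h. The labels give a subcutaneous injection and controls that received PBS, whereas the methods give an intraperitoneal injection and untreated controls. The RV PBS arrays set hypoxia-ischemia (HI, ligation of the right carotid artery followed by hypoxia, Cy5) against control mice (Cy3), with 3 arrays at 3 h and 3 at 12 h after the insult. Their Cy5 treatment label names MgSO4, but the title and source do not, and they are treated here as injured mice that received no MgSO4. The RV Mg arrays (3 at 3 h, 3 at 12 h) hold HI after MgSO4 in Cy5 by their labels. Their Cy3 sample is MgSO4-treated mice without HI by the labels and HI without MgSO4 by the methods, and the study's figures place the MgSO4-treated HI sample in Cy3. In the Cy3 channel of RV Mg at 3 h, Fos, an immediate-early gene, was 5.64 ± 0.20 (SE) log2 units above the controls, and Ccl4, a chemokine, 4.46 ± 0.36. The label without HI goes against these values, so RV Mg ratios are given below by channel, with no direction for MgSO4.

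Values are the base-2 logarithm of the Cy5 over the Cy3 signal (log2 ratio), so 0 means equal signal. A group mean was tested against 0 with limma's moderated test, and "passed the test" means an adjusted p under 0.05, with the adjustment of Benjamini and Hochberg made over every probe in the test. No array is labelled as having its dyes swapped, so the effect of the dye on a probe cannot be told apart from the contrast. The Mg and RV arrays shared none of the 9 slides. The Mg 3h arrays were on slides of their own, while the Mg 6h, 12h and 24h arrays shared slides. For the Mg experiment the methods give 3 independent samples at each time, whereas its groups hold 4 to 7 arrays, so some of its arrays may share a pool, and which ones is not given in the sources used here. The p-values thus measure the spread between arrays of pooled RNA, which may be partly technical.

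Ribosomal proteins are made in step with ribosomal RNA and assembled into subunits in the nucleolus, and a growing brain makes many ribosomes. Their mRNAs are among the most abundant in a cell and begin with a run of C and T bases, the 5′ terminal oligopyrimidine (TOP) motif. Through it, mTOR, a kinase that senses nutrients and growth factors, and the RNA-binding protein Larp1 set how strongly they are translated. Hypoxia and ischemia are known to lower translation, a step that mRNA levels do not measure.

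RefSeq promoters (GRCm38.p6, 250 bases before and 50 after the annotated start) were held for 67 of the 88 genes. The windows below cover 30 bases before the start and 25 from it. They are shown for 6 genes that passed the test in a comparison described below, and the capitals mark the longest run of C and T that begins with C within 10 bases of the start, where it has 5 or more bases. Rpl35, Rps21 and Rpl36a passed in both 3 h injury comparisons, Rpl14 and Rps2 in RV Mg 3h, and Rpl10, which has no such run, in RV PBS 3h.
Rpl35, chr2:39005107-39005161, minus strand: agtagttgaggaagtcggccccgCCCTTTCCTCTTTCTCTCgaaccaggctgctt
Rps21, chr2:180257349-180257403, plus strand: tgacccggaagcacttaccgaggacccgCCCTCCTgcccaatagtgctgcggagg
Rpl36a, chrX:134585624-134585678, plus strand: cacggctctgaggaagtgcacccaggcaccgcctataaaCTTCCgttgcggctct
Rpl14, chr9:120571487-120571541, plus strand: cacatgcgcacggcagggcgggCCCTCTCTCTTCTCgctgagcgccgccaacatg
Rps2, chr17:24720033-24720087, plus strand: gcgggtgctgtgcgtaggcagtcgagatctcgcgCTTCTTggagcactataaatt
Rpl10, chrX:74270786-74270840, plus strand: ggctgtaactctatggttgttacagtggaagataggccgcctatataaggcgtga
The run had 18 bases in Rpl35 and 14 in Rpl14, 7 in Rps21, 6 in Rps2 and 5 in Rpl36a. In all, 13 genes passed the test in at least 1 ratio comparison, 10 of them with a window, and 7 of the 10 had a run of 5 or more bases.

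Of the 57 promoters of 40S, 60S and stalk genes, 54.4% had a run of at least 5 bases, against 30.8% of the 27025 genes in the table. A run of at least 8 bases was found in 35.1% of the 57 and in 8.03% of all genes. These runs could begin up to 10 bases from the annotated start. A run of at least 5 bases that began with C at the start itself was found in 21.1% and 2.49%. The letters CCGGAAG, the core bound by ETS family factors, occurred on either strand of 40.4% of the 57 promoters and 9.12% of all. AAGATGGC, the core bound by YY1, occurred in 7.02% against 2.88%. The TATA letters TATAAA occurred in 8.77% against 14.2%. CCGGAAG and AAGATGGC can overlap by their shared AAG, and a match of letters is not a bound site. The mean log2 ratio over the 8 groups had a median of -0.01 in the 23 genes with a run of 8 or more and 0.01 in the 44 others with a promoter.

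As a group, the ribosomal protein genes lay close to equal signal on every array. The scanner software's dye normalization (LOWESS) sets ratios near 0 at each signal level. A shift shared by many bright genes, such as the members, would thus be partly removed. Normexp background correction with loess gave higher medians of the members in every group, as given in the closing section. The median log2 ratio of the members on an array ran from -0.06 to 0.17 over the 31 arrays, and that of all genes tested from -0.08 to 0.07. The mean of the array medians was 0.06 ± 0.06 (SD, n = 4) in Mg 3h, 0.08 ± 0.04 (n = 7) in Mg 6h, 0.04 ± 0.04 (n = 4) in Mg 12h and 0.06 ± 0.04 (n = 4) in Mg 24h. It was 0.01 ± 0.03 in RV PBS 3h, 0.01 ± 0.06 in RV PBS 12h, -0.01 ± 0.06 in RV Mg 3h and 0.00 ± 0.04 in RV Mg 12h (SD, n = 3 each). The median of the members was above 0 on each of the 19 Mg arrays and on both sides of 0 within each injury group. The median 60S ratio of an array ran from 0 to 0.16 and the median 40S ratio from -0.11 to 0.14. The median of the 7 paralogues tested was -0.15 in RV PBS 3h, -0.17 in RV Mg 3h and -0.23 in RV PBS 12h, with 2 of the 7 above 0 in each.

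**Figure D1:**
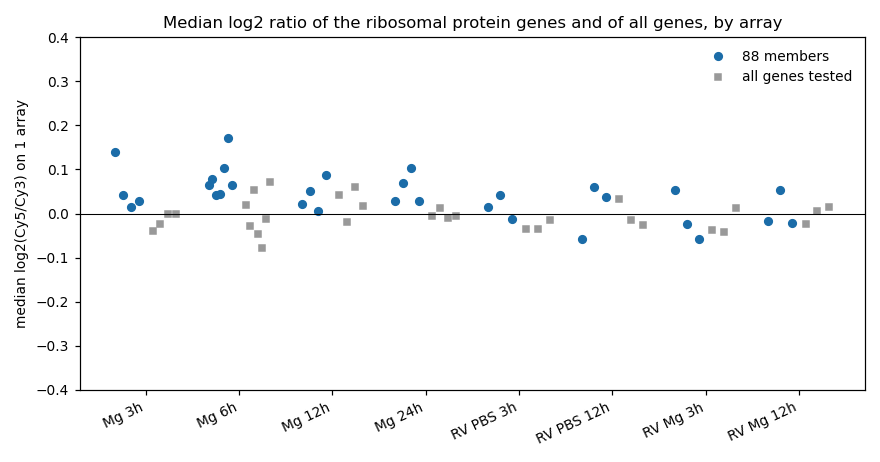
Median log2 ratio (Cy5 over Cy3) of the 88 ribosomal protein genes (circles) and of all genes tested (squares) on each of the 31 arrays, by group. The circles lie between -0.06 and 0.17, above 0 on every Mg array and on both sides of 0 in the RV groups.

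The members varied less between arrays of a group than most genes did. The pooled standard deviation within groups had a median of 0.15 log2 units over the 88 members and 0.28 over the 14066 genes well above background on at least 2 of every 3 arrays. The most variable member, at 0.83, was Rpl39l, a paralogue of the exit tunnel protein Rpl39 known for its expression in testis, whose probe was dim. Rpl10l and Rpl3l, paralogues known from testis and from striated muscle, were too dim to be tested, except for Rpl10l in Mg 24h. Hence 86 members were tested in each group and 87 in Mg 24h.

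Single members kept their sign across the series more often than genes at large, whatever the treatment. Of the 87 members with a value on all 31 arrays, 9 had the same sign on every array (10.3%), against 0.588% of the genes well above background. The 8 above 0 included Rps14, Rpl35, Rps10, Rpl23, Rpl7, Rpl41 and Rpl24, and the 1 below 0 was Rpl3. By group means, 29 of 88 members had 1 sign in all 8 groups (20 above, 9 below), or 33.0% against 11% of those genes. The genes were not matched to the members in brightness. None of the 88 (0%) had a mean over groups of 1.5-fold or more, a size that 94 of the 14066 genes (0.668%) reached. The means over groups had a standard deviation of 0.18 over the members and 0.16 over those genes. The groups held different treatments but, by the labels, always the same dye order.

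Rps14, a protein of the platform of the small subunit, had the highest mean over groups. Its log2 ratios were 0.96, 0.46, 0.38 and 0.54 in Mg 3h, and 0.74, 0.88, 0.60, 0.90, 0.52, 1.08 and 0.76 in Mg 6h. They were 0.90, 1.38, 0.52 and 0.49 in Mg 12h, and 0.64, 0.78, 0.43 and 0.92 in Mg 24h. Rps14 was above 0 in all 19, and its lowest Mg value, 0.38, was in Mg 3h. In the injury groups it was 0.71, 0.39 and 0.52 in RV PBS 3h, 0.24, 0.10 and 0.31 in RV PBS 12h, 0.24, 0.34 and 0.62 in RV Mg 3h, and 0.57, 0.10 and 0.33 in RV Mg 12h. The 3 values of RV PBS 12h lay below all 19 Mg values, whereas those of RV PBS 3h overlapped them.

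Rpl35, which sits at the exit of the large subunit's peptide tunnel, was also above 0 throughout, from 0.15 to 0.98. Its values were 0.51, 0.23, 0.40 and 0.36 in Mg 3h, 0.45, 0.88, 0.62, 0.97, 0.63, 0.98 and 0.61 in Mg 6h, 0.50, 0.77, 0.64 and 0.58 in Mg 12h, and 0.50, 0.64, 0.49 and 0.75 in Mg 24h. They were 0.44, 0.25 and 0.43 in RV PBS 3h, 0.20, 0.15 and 0.22 in RV PBS 12h, 0.45, 0.35 and 0.48 in RV Mg 3h, and 0.40, 0.54 and 0.38 in RV Mg 12h. RV PBS 12h was again the lowest group, with no overlap with any Mg group. Rpl3, a protein of the large subunit near the peptidyl transferase centre, was below 0 on all arrays, from -0.48 in Mg 6h and Mg 12h to -0.06 in Mg 12h and RV Mg 3h. Its group means were lowest in Mg 6h (-0.36), Mg 12h (-0.31) and Mg 24h (-0.31).

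**Figure D2:**
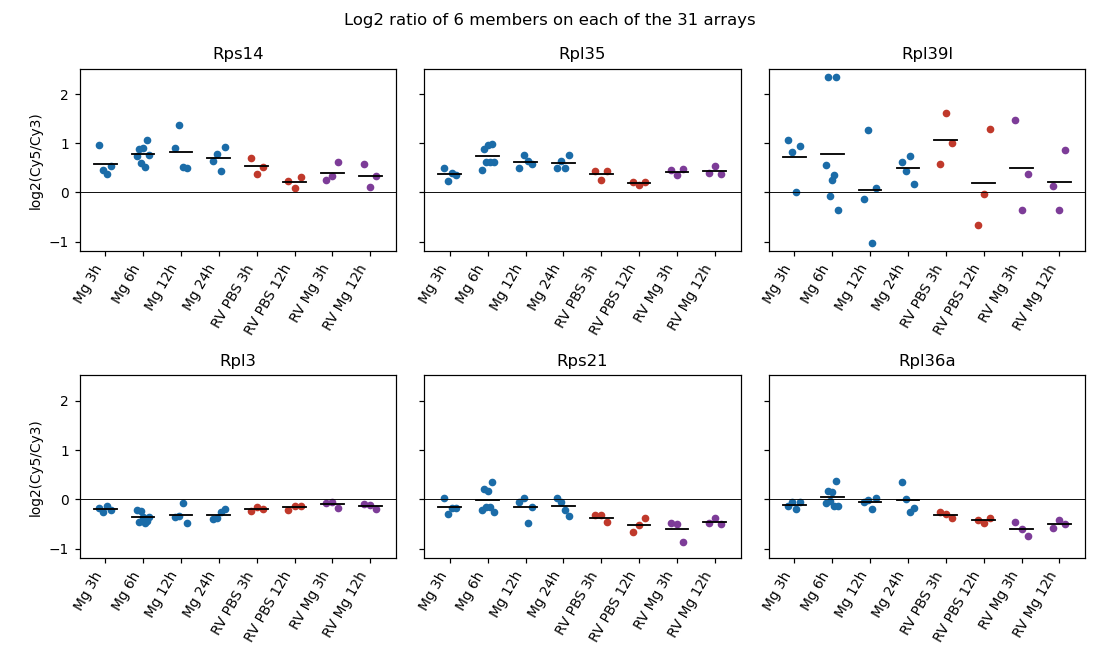
Log2 ratio (Cy5 over Cy3) of 6 members on each of the 31 arrays, with a bar at each group mean. Rps14 and Rpl35 lie above 0 and Rpl3 below 0 on every array, Rpl39l spreads from -1.03 to 2.35, and Rps21 and Rpl36a are below 0 on all 12 RV arrays and on both sides of 0 on the Mg arrays.

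The Mg arrays asked what MgSO4 changed in the uninjured brain. The members' share at an unadjusted p under 0.05 was 23.3% at 3 h (all genes 9.21%), 36% at 6 h (13.4%), 20.9% at 12 h (15.9%) and 25.3% at 24 h (11.3%). All genes were not matched to the members in brightness. At 3 h no member passed the adjusted test (0 of 86, with 0% of all genes), while 20 were at an unadjusted p under 0.05, 18 of them above 0. At 12 h none passed (0 of 86; all genes 0%), with 18 at p under 0.05, and at 24 h none (0 of 87; all genes 0.00714%), with 22. The methods' t-test after adjustment also called 0 members in each of these 3 groups. Normexp background correction with loess called some members at 3 h and 12 h, as given in the closing section. At 6 h 1 of 86 members passed, against 0.0365% of all genes (0.0219% higher). This was Rps14, at 0.78 ± 0.09 (SE, n = 7; limma adjusted p = 0.0485), above 0 on 7 of 7 arrays. Rpl35 (0.73 ± 0.10) and Rps10, a small subunit protein (0.58 ± 0.09), followed with limma adjusted p = 0.0786 and 0.101.

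The Rps14 call at 6 h rested on the full set of arrays. Leaving out any 1 of the 7 gave a mean of 0.73 to 0.82 and ended the call, and it held in 4 of 16 alternative settings. Replicates 3 and 7, which shared a slide, stood apart. They correlated with the other 5 arrays at -0.42 to -0.01 over all probes tested, below -0.3 in 5 of the 10 pairs. With each other they correlated at 0.56. Over the members alone the same 10 pairs correlated at 0.07 to 0.67. Without those 2 arrays 20 of 86 members passed (23.3%, all genes 17.2%). Replicates 2 and 6, which also shared a slide, correlated at 0.86 over all probes and 0.96 over the members, the highest of any pair within a group. Without either of them no member passed. Replicates 1 and 5 shared a slide too and correlated at 0.22 over all probes and 0.41 over the members. With the slide as a random block no member passed. The methods state the dyes, and the direction was kept as labelled.

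The members with the largest same-sign means in the Mg groups differed little with time. Rps14 was among the 3 highest at 3, 6, 12 and 24 h, and Rpl35 at 6, 12 and 24 h. At 3 h the others were Rpl39l (0.72 ± 0.18) and Rpl32, a large subunit protein (0.39 ± 0.08), and at 24 h Rps24 (0.53 ± 0.13), a small subunit protein. Rpl3 was among the 3 lowest at each time, with Rps4x, the X-linked small subunit protein, at 3 h (-0.24 ± 0.07), 6 h (-0.25 ± 0.09) and 24 h (-0.23 ± 0.09). Rpl7l1, a paralogue of Rpl7 thought to act in ribosome assembly, was lowest at 12 h, at -0.45 ± 0.14. None of these means but that of Rps14 at 6 h passed the test.

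Among genes with roles beyond the body of the subunits, group means in the Mg arrays stayed small. Rplp0, which anchors the stalk that recruits elongation factors, was 0.08, 0.30, 0.14 and 0.07 at 3, 6, 12 and 24 h, and Rplp1 was -0.12, -0.21, -0.05 and -0.09. Rplp2 lay between -0.01 and 0.08. Rps6, the substrate of the S6 kinases downstream of mTOR, was 0.13, 0.02, 0.09 and 0.09. Rpl22, which also binds other RNAs, was 0.09, 0.30, 0.25 and 0.27, and its paralogue Rpl22l1 was 0.01, 0.12, 0.02 and 0.23.

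**Figure D3:**
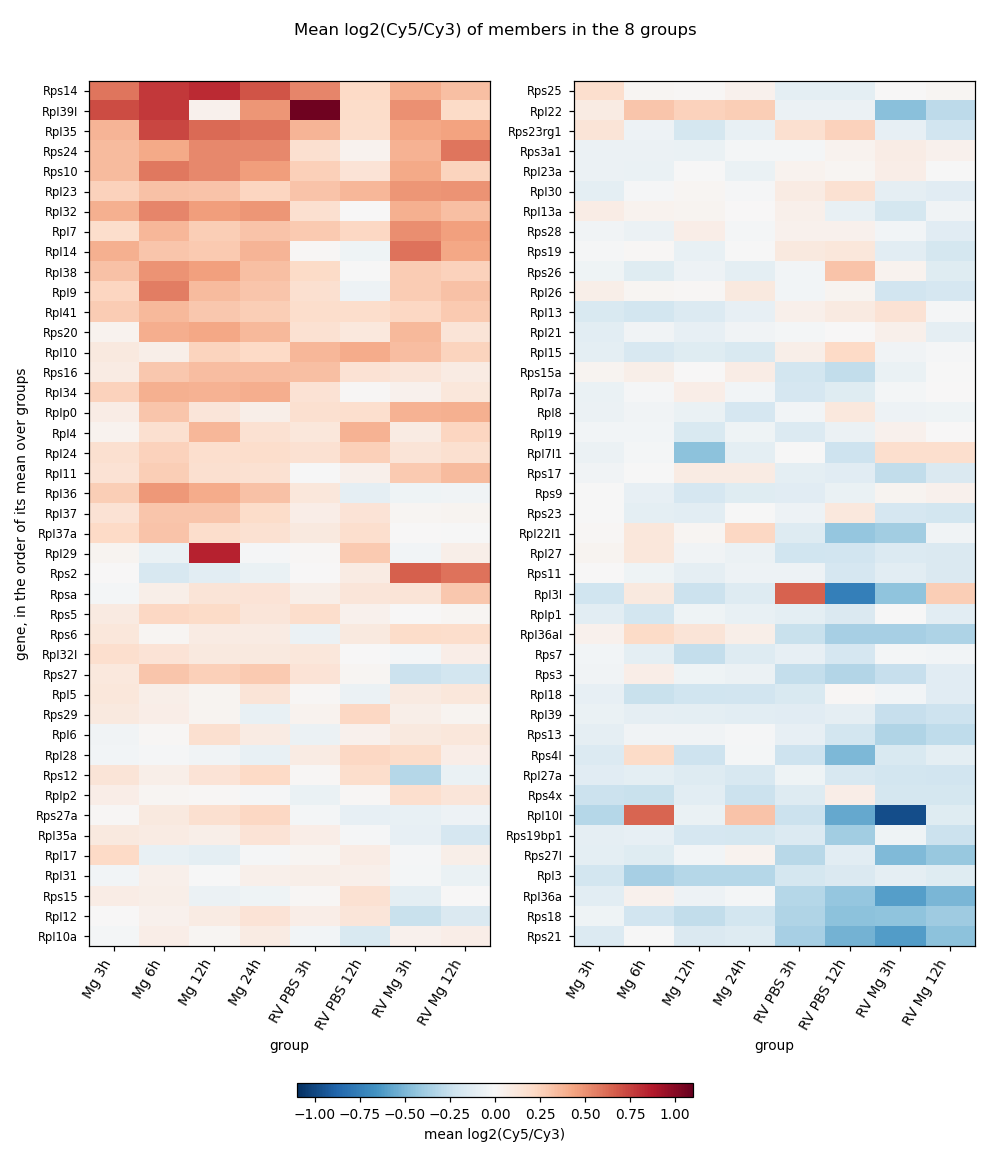
Group mean log2 ratio (Cy5 over Cy3) of members in the 8 groups, ordered by the mean over groups; red is above 0 and blue below. The rows at the top (Rps14, Rpl39l, Rpl35) and at the bottom (Rps21, Rps18, Rpl36a) hold 1 colour in nearly all groups, and Rpl10l and Rpl3l, shown with their values, were too dim to be tested except for Rpl10l in Mg 24h.

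The RV PBS arrays asked what HI changed. At 3 h, when 14.9% of all genes passed the test, 10 of 86 members did (11.6%). The 7 higher in Cy5 were 8.1% of the members tested, against 6.24% of all genes, and the 3 lower were 3.5%, against 8.7%. With this processing the members' share of calls was thus near that of all genes. Normexp background correction with loess called more members, as given in the closing section without the share of all genes. Apart from Rpl39l, the members called differed by less than 1.5-fold. In the same arrays all 9 tested genes of a list of early injury responses rose, led by Fos (5.52 ± 0.15, SE).

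Rpl39l was highest, at 0.58, 1.63 and 1.00 (mean 1.07 ± 0.20 SE; limma adjusted p = 0.0367), all above 0, but in other groups it ran from -1.03 to 2.35. Rps14 was at 0.54 ± 0.08 (limma adjusted p = 0.0285) and Rpl35 at 0.37 ± 0.07 (adjusted p = 0.0371). Both genes were above 0 on every array of the series, whatever the treatment. With 1 labelled dye order, HI and the dye cannot be told apart here. Rpl10, which joins the large subunit last and is needed for the subunits to pair, gave 0.39, 0.28 and 0.42. Its mean was 0.36 ± 0.06 (adjusted p = 0.0338). The same gene gave 0.44, 0.42 and 0.37 in RV PBS 12h and -0.09 to 0.41 in the Mg groups. Rps16, whose tail reaches the P site, was at 0.33 ± 0.07 (adjusted p = 0.0472). Rpl23, at the subunit interface and also above 0 on every array, was at 0.31 ± 0.07 (adjusted p = 0.0461).

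The 3 members lower in Cy5 were Rps21, Rps18 and Rpl36a. Rps21, a small subunit protein, gave -0.32, -0.33 and -0.46, a mean of -0.37 (SE 0.07, limma adjusted p = 0.0340). Rps18, in the head of the small subunit, gave -0.34, -0.23 and -0.43, a mean of -0.33 (SE 0.07, adjusted p = 0.0440). Rpl36a, a large subunit protein near the E site, gave -0.26, -0.30 and -0.38, a mean of -0.31 (SE 0.06, adjusted p = 0.0402). Every array of the 3 genes was below 0. With replicate 1 or 3 left out no member passed (all genes 1.67% and 4.73%), and with replicate 2 left out 2 did (2.33%, all genes 3.88%). With dim probes kept in the test, or by the methods' t-test with adjustment, 0 passed, with 23 at its unadjusted p under 0.05.

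Several calls rested on 1 of a gene's probes. Between 24 and 29 of the 51 members with more than 1 tested probe had probes of opposite sign, depending on the group, and the probes of a gene differed by a median of 0.12 to 0.23. The other probe of Rps18 gave 0.13 in RV PBS 3h. The other probes of Rpl10 gave -0.05 and -0.07, those of Rps16 0.13 and -0.07, and those of Rpl23 -0.13 and -0.01. Rpl36a differed from these: its 3 probes were all below 0, at -0.31, -0.23 and -0.08. Rps14, Rpl35, Rps21 and Rpl39l had a single probe.

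At 12 h after HI no member passed the test (0 of 86; all genes 0.0137%), with 10 at an unadjusted p under 0.05 (11.6%, all genes 27.9%), and 0 by the methods' t-test with adjustment. Without replicate 3, 6 members passed (6.98%, all genes 23.2%). Among the members with the highest same-sign means were Rpl10 (0.41 ± 0.11 SE) and Rpl4 (0.38 ± 0.15), both of the large subunit. The lowest were Rps21 (-0.52 ± 0.12), Rps4l (-0.50 ± 0.13) and Rps18 (-0.45 ± 0.13). Rps21 gave -0.67, -0.51 and -0.37 and Rpl36a -0.41, -0.47 and -0.38, so both were below 0 on all 6 RV PBS arrays.

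The RV Mg arrays hold MgSO4 with HI in Cy5 by the labels and in Cy3 by the study's figures, so the channels are compared without direction. At 3 h 6 of 86 members passed (7.0%), against 8.95% of all genes. The 4 higher in Cy5 were 4.7% of the members, against 6.25% of all genes, and the 2 lower in Cy5 were 2.3%, against 2.69%. Rps2, at the mRNA entry of the small subunit, gave 0.38, 0.80 and 0.79 (mean 0.66 ± 0.12 SE; limma adjusted p = 0.0294). Rpl14 gave 0.53, 0.51 and 0.74 (0.59 ± 0.10; adjusted p = 0.0236), Rpl7 0.37, 0.52 and 0.63 (0.51 ± 0.10; adjusted p = 0.0355), and Rpl35 a mean of 0.43 ± 0.10 (adjusted p = 0.0469). Rpl36a gave -0.47, -0.59 and -0.75 (-0.60 ± 0.11; adjusted p = 0.0240) and Rps21 -0.48, -0.50 and -0.86 (-0.61 ± 0.12; adjusted p = 0.0310). All 3 arrays had the sign of the mean for each of the 6 genes.

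Leaving out replicate 1 raised the count of calls to 16 (18.8% of the members tested; all genes 18.3%). Without replicate 2 it was 1 (1.18%, all genes 4%), and without replicate 3 it was 5 (5.81%, all genes 11.9%). With dim probes kept in the test or by the methods' t-test with adjustment it was 0, with 25 at its unadjusted p under 0.05. The other probe of Rps2 gave -0.17, that of Rpl14 -0.03, and those of Rpl7 0.21, -0.03 and 0.10. The 3 probes of Rpl36a again had 1 sign, at -0.60, -0.58 and -0.33.

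At 12 h no RV Mg member passed the test (0 of 86; all genes 0%), with 23 at an unadjusted p under 0.05 (26.7%, all genes 24.3%) and 0 by the methods' t-test with adjustment. Among the highest same-sign means were those of Rps2 (0.59 ± 0.15 SE) and Rps24 (0.59 ± 0.11), both of the small subunit. The lowest were Rpl36a (-0.50 ± 0.10), Rps21 (-0.46 ± 0.10) and Rps27l (-0.42 ± 0.11), a paralogue known as a p53 target. Rps2 gave 0.77, 0.79 and 0.22, Rpl36a -0.58, -0.42 and -0.49, and Rps21 -0.49, -0.38 and -0.49. The stalk gene Rplp0 was at 0.50, 0.37 and 0.30, a mean of 0.39 as at 3 h.

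Some members lay lower on the RV arrays than on the Mg arrays. Rpl36al, the autosomal paralogue of Rpl36a, was below 0 on all 12 RV arrays, from -0.50 to -0.13, and on 3 of the 19 Mg arrays, which ran from -0.11 to 0.52 and did not overlap with the RV arrays. Each RV group was also compared with the mean of the 4 Mg groups in 1 fit, a comparison chosen after the data were seen. It would cancel a dye effect only if that effect were the same on all arrays, which was not tested. The Mg groups also carry their own MgSO4 contrast. In RV PBS 3h no member was then higher (all genes 1.26%), and 1 was lower (all genes 1.17%), Rpl36al, by 0.36 (limma adjusted p = 0.0465). None of the 10 members that had passed against 0 passed against the Mg groups, and the estimates of Rps14 (-0.18) and Rpl35 (-0.21) turned negative. The positive ratios of both genes in the Mg groups produce this change of sign by construction. The array sets share no slide, so the treatments and the sets cannot be told apart here.

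In RV PBS 12h, 4 of 86 members were higher than in the Mg groups (4.65%, all genes 3.85%). They included Rps26 (0.40 ± 0.12 SE), Rpl15 (0.37 ± 0.10) and Rps4x (0.28 ± 0.09). Lower were 13 members (15.1%, all genes 6%). They were Rpl22l1 (-0.52 ± 0.16), Rps14 (-0.51 ± 0.15), Rpl36al (-0.48 ± 0.10), Rpl32 (-0.47 ± 0.09), Rpl36 (-0.47 ± 0.12), Rpl35 (-0.39 ± 0.10) and Rpl36a (-0.39 ± 0.11), and also Rps4l (-0.45), Rpl9 (-0.42), Rps24 (-0.41), Rpl38 (-0.40), Rps21 (-0.40) and Rps15a (-0.32). The values of Rpl32 show what lies behind such a difference, at 0.08, 0.01 and -0.09 in RV PBS 12h and 0.29 to 0.74 in the Mg groups, with no overlap.

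In RV Mg 3h, 2 members were higher than in the Mg groups (all genes 5.15%), Rps2 (0.74 ± 0.19) and Rpl13 (0.31 ± 0.09), and 9 of 86 were lower (all genes 2.03%). The lowest were Rpl22 (-0.69 ± 0.13), Rpl36a (-0.57 ± 0.11), Rps21 (-0.50 ± 0.12), Rps27 (-0.48 ± 0.10) and Rpl36al (-0.48 ± 0.10), followed by Rps12 (-0.46), Rpl36 (-0.42), Rps13 (-0.28) and Rpl26 (-0.26). In RV Mg 12h, 2 were higher (all genes 3.69%), among them Rps2 (0.68 ± 0.19). Lower were 5 (all genes 1.43%), Rpl22 (-0.52 ± 0.13), Rpl36a (-0.46 ± 0.11), Rpl36al (-0.45 ± 0.10), Rps27 (-0.44 ± 0.10) and Rpl36 (-0.41 ± 0.12). Rpl22 gave -0.27, -0.42 and -0.70 in RV Mg 3h and -0.35, -0.14 and -0.38 in RV Mg 12h, while on the Mg arrays it ran from -0.20 to 0.65. These 4 comparisons share the Mg arrays as their reference.

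Differences between times were not detected in any member. None of 86 or 87 members passed from Mg 3h to 6h (all genes 0%; 6 members at an unadjusted p under 0.05), from Mg 6h to 12h (0.00714%; 3 members), from Mg 12h to 24h (0%; 1 member), from RV PBS 3h to 12h (0%; 2 members) or from RV Mg 3h to 12h (0%; 0 members). In the same order, the share of all genes at an unadjusted p under 0.05 was 4.45%, 14.2%, 1.23%, 16.7% and 3.56%, and that of the members 6.98%, 3.49%, 1.15%, 2.33% and 0%. The median change of the members ran from -0.03 to 0.04 over the 5 contrasts. Mg 3h and Mg 6h shared no slide, so time and slide cannot be told apart between them.

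Comparing 1 channel between arrays needs the arrays to be put on a common scale, and here the members depended on that scale. With each channel set to its 75th percentile, the median of the members on an array ran from 6.29 to 8.22 in Cy3 and from 6.30 to 8.27 in Cy5, while both channels of an array lay within 0.14 of each other. Quantile normalization gives all arrays the same distribution, and it was done for Cy3 and Cy5 separately. The members lie near the top of the signal range, so it would remove much of a shift that they share. A median near 0 after it therefore does not show that the members were unchanged. After it the medians ran only from 16.08 to 16.50 log2 signal in Cy3 and from 16.08 to 16.47 in Cy5.

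**Figure D4:**
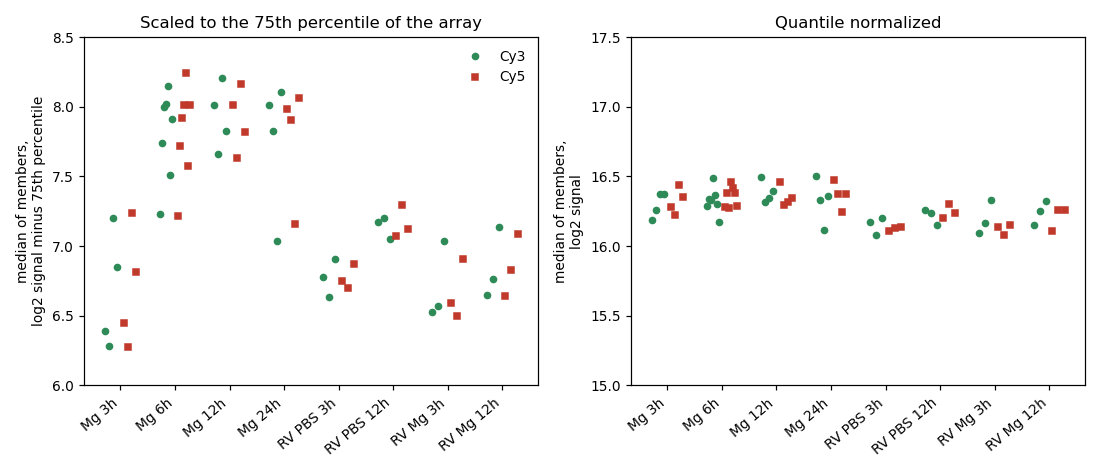
Median log2 signal of the members on each array, Cy3 (circles) and Cy5 (squares), by group. The signal was scaled to the 75th percentile of the channel (left) or quantile normalized within each channel (right). On the left the arrays spread from 6.29 to 8.27 with both channels of a group moving together, and on the right they lie between 16.08 and 16.50.

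The size of this is seen between the controls of both experiments at 12 h, which are in the same dye, on slides of their own and from litters of their own. Both are labelled naive mice with PBS, whereas the methods describe the Mg controls as untreated. The RV PBS controls were below the Mg controls by a median of 0.59 log2 units over the members (-0.59), with 83 of 86 members below 0. As many as 41 members were lower (47.7%, all genes 16.5%) and none higher, led by Rpl17 (-1.29 ± 0.29 SE), Rps15 (-1.25 ± 0.21), Rps7 (-1.23 ± 0.22), Rps19 (-1.22 ± 0.27), Rps23rg1 (-1.17 ± 0.18) and Rpl19 (-1.14 ± 0.19). Least lowered among those called were Rplp2 (-0.43), Rpl23a (-0.50), Rps4x (-0.52), Rps6 (-0.53), Rpl21 (-0.55) and Rps19bp1 (-0.55). After quantile normalization the median was 0.03, with 1 member higher and 6 lower (8.14% called, all genes 34.1%), and after normexp background correction 0.40, with 1 higher and 3 lower (4.65%, all genes 18.3%). Leaving out 1 array gave 22 calls without RV PBS 12h replicate 3 (25.6%, all genes 19.3%) to 56 without Mg 12h replicate 2 (65.1%, all genes 40.2%). The summed level of 8 blood genes, 7 of them well above background and 1 never, was 9.61 to 10.2 in the Mg 12h controls and 8.51 to 8.81 in the RV PBS 12h controls. That of 7 choroid plexus genes was 0.27 to 5.84 and 5.74 to 6.04. Every list of cell type markers but that of blood held a marker higher in the RV PBS controls. Of the neuron markers 4 of 10 were higher, among them Rbfox3 (1.11), and 1 lower, Snap25 (-1.17). Of the astrocyte markers 5 of 8 were higher, among them Sox9 (1.01), and none lower, and of the oligodendrocyte markers 3 of 8 were higher, among them Mbp (1.40), and 1 lower, Mog (-1.21). Of the microglia markers 1 of 8 was higher, Cx3cr1, and 3 lower, among them Csf1r (-0.95). Higher were also 1 of 7 endothelial markers, Flt1 (1.33), and 4 of 6 choroid plexus markers, led by Otx2 (2.32), while all 7 blood markers tested were lower. The part of these cells in the members' difference was not tested.

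The Cy3 sample of RV Mg 12h against the controls of both experiments gave a median of -0.67, with quartiles of -0.82 and -0.49 and 83 of 86 members below 0. No member passed the test (all genes 0.0348%), with 58 lower and 1 higher at an unadjusted p under 0.05 (68.6%, all genes 29.6%). The size of the difference depended on the scale: the median was 0.03 after quantile normalization and -0.03 after normexp correction. Against the Mg controls alone 71 members were called (82.6%, all genes 47.3%), with a median of -0.94, and against the RV PBS controls alone 0 (all genes 0%), with a median of -0.30. Cy5 of RV Mg 12h was below Cy5 of RV PBS 12h by a median of 0.33 (-0.33), with 77 of 86 below 0, 0 called (all genes 0%) and 22 at an unadjusted p under 0.05 (25.6%, all genes 11.5%). After quantile normalization that median was -0.04.

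At 3 h the one-channel differences were smaller. Cy3 of RV Mg 3h differed from the controls by a median of -0.00, with 0 members called (all genes 0.425%) and 2 at an unadjusted p under 0.05 (2.33%, all genes 12.8%). Between both sets of 3 h controls the median was 0.20, and 5 members were higher in the RV PBS controls (5.8%, all genes 4.02%): Rpsa, the laminin receptor protein (1.57 ± 0.28 SE), Rps21 (1.56 ± 0.18), Rpl4 (1.09 ± 0.20), Rps15a (1.07 ± 0.14) and Rpl7a (0.98 ± 0.19). Without any 1 of the 3 RV PBS arrays none of these calls was left (all genes 0.204% to 0.301%). Without Mg 3h replicate 2 the count was 2 (2.33%, all genes 2.68%), and without Mg 3h replicate 3 it was 18 (20.9%, all genes 24.2%). After quantile normalization 4 members were higher and 6 lower (11.6% called, all genes 11.2%). The summed level of the 7 choroid plexus genes was 4.79 to 5.14 in the Mg 3h controls and 6.09 to 6.20 in the RV PBS 3h controls. Of the choroid plexus markers 4 of 7 were higher there, led by Otx2 (2.26), as were 1 of 10 neuron (Gad2, 0.79), 1 of 8 astrocyte (Aldoc, 0.70) and 1 of 8 microglia markers (Cx3cr1, 0.55), while 1 neuron marker was lower (Slc17a7, -1.15) and no oligodendrocyte, endothelial or blood marker passed. Their part in the result was not tested.

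Cy5 of RV Mg 3h was below Cy5 of RV PBS 3h by a median of 0.11 (-0.11), with 0 members called (all genes 8.46%) and 4 at an unadjusted p under 0.05 (4.65%, all genes 25.7%). Same-numbered arrays of both groups shared a slide and deviated together, and with the replicate block 7 members passed (8.1%, all genes 32%). Higher in RV Mg were Rps2 (0.36 ± 0.08 SE) and Rpl7l1 (0.25 ± 0.06). Lower were Rpl15 (-0.34 ± 0.06), Rps15 (-0.30 ± 0.07), Rpl22 (-0.30 ± 0.06), Rps12 (-0.30 ± 0.08) and Rps26 (-0.28 ± 0.06). Under quantile normalization, without the block, only Rps2 passed (0.51 ± 0.09; all genes 10.1%), and normexp correction gave 10 members lower (11.6%, all genes 10.2%). Without the block, 1 of 8 astrocyte markers was lower in RV Mg (Gfap, -0.80), as were 1 of 8 oligodendrocyte (Sox10, -0.50), 1 of 8 microglia (C1qc, -0.47) and 1 of 7 blood markers (Hbb-bs, -0.91). No neuron, endothelial or choroid plexus marker passed. The summed level of the blood genes was 8.64 to 8.95 in Cy5 of RV PBS 3h and 8.19 to 8.73 in Cy5 of RV Mg 3h, and the part of these cells in the members' difference was not tested.

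**Figure D5:**
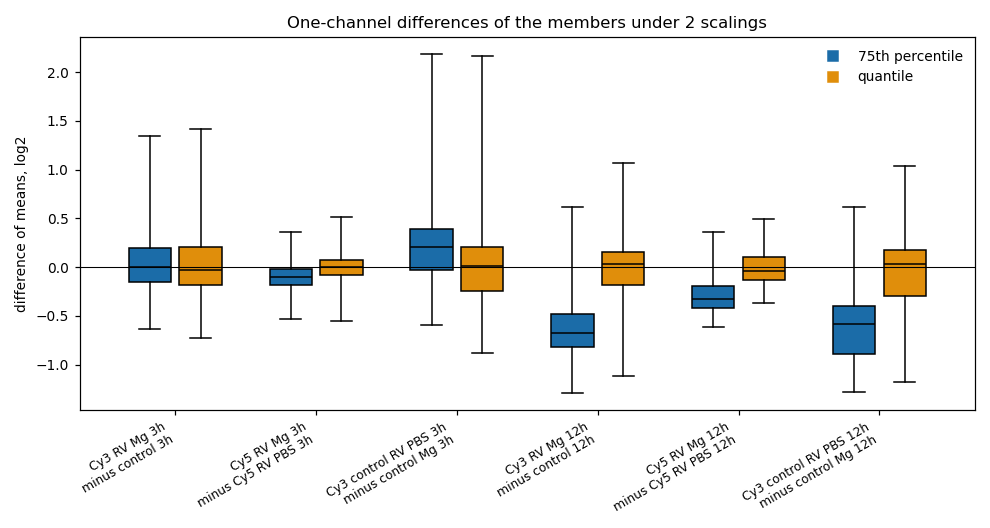
Distribution over the 86 tested members of the difference in mean log2 signal for 6 one-channel comparisons, scaled to the 75th percentile (blue) or quantile normalized (orange); boxes give quartiles and median, whiskers the lowest and highest member. Medians of -0.67, -0.33 and -0.59 at 12 h become 0.03, -0.04 and 0.03 after quantile normalization.

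Other genes of the pathway were read from lists, in the log2 ratio. In the 4 Mg groups and RV Mg 12h no listed gene of translation, ribosome assembly or mTOR signalling passed the test, and none did in RV PBS 12h. In RV PBS 3h, 1 of 12 elongation and termination factors rose, Eef1a1 (0.28), and 1 of 40 initiation factors fell, Eif2s1 (-0.40), the subunit of eIF2 through which stress kinases act. Of 52 ribosome assembly genes 2 rose, Ubtf (0.60), the RNA polymerase I factor, and Gtpbp4 (0.52), and 4 fell, among them Imp3 (-0.38) and Ltv1 (-0.42). Of 25 genes in a list of mTOR signalling and related kinases, 2 rose and 2 fell. Those that rose were Ddit4 (0.59), an mTOR inhibitor induced by hypoxia, and the kinase Rps6ka3 (0.45). Those that fell were the kinases Rps6ka1 (-0.39) and Rps6ka5 (-0.42). The medians of these 4 lists were 0.11, 0.03, -0.04 and 0.08. Of all genes, 6.24% were higher and 8.7% lower in RV PBS 3h. The counts in the lists were near those shares or below them.

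In RV Mg 3h, 2 of 12 elongation factors were higher in Cy5, Eef1a2 (0.89), the form of neurons and muscle, and Eif5a (0.51). So were 2 of 40 initiation factors (Eif2b5, 0.54, and Eif3f, 0.48) and 7 of 52 assembly genes, led by Ubtf (0.73) and Pes1 (0.70), with 1 lower, Imp3 (-0.43). Of the mTOR genes, Akt1s1 (0.62) and Rps6kb2 (0.53) were higher. Of all genes, 6.25% were higher in Cy5 and 2.69% lower. The ribosomal proteins Fau and Rack1, whose symbols fall outside the rule, passed in no ratio comparison. Rack1 had group means of 0.14 to 0.52, above 0 in all 8 groups, and Fau of -0.33 to 0.30.

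Between 45.2% and 69.7% of spots were well above background in Cy3 and 54.4% to 70.2% in Cy5, with 0% saturated. Correlations between arrays of a group ran down to -0.15 in Mg 3h, 12h and 24h, and from 0.24 to 0.68 in the RV groups. Markers of neurons and astrocytes were well above background on every array. In RV PBS 3h, 2 of 10 neuron markers rose (Snap25 by 0.35, Gad1 by 0.33), 1 of 8 astrocyte and 1 of 8 oligodendrocyte markers rose (Slc1a2 by 0.42, Mbp by 0.61), 1 of 8 microglia markers fell (P2ry12, by 0.37), as did 1 of 7 choroid plexus markers (Otx2, by 0.35), and 0 of 7 endothelial and 0 of 7 blood markers passed. In RV Mg 3h, 1 neuron, 1 microglia and 1 endothelial marker were higher in Cy5 (Slc17a6 0.51, C1qb 0.52, Pecam1 0.54). The shares of all genes were 6.24% higher and 8.7% lower in RV PBS 3h, and 6.25% and 2.69% in RV Mg 3h. The part of these cells in the members' ratios was not tested. In bulk RNA, fewer cells of a type and less RNA per cell cannot be told apart.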

How the data were processed

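Per the labels and the study's methods, the authors hybridized Cy3 and Cy5 cRNA and extracted the scans with Agilent Feature Extraction 10.5.1.1, whose dye normalization was LOWESS. The deposited scanner files hold processed intensity per channel and a log10 ratio, and the deposited series matrix holds log10 ratios (used as an alternative). Groups came from the titles.

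Control and outlier spots were left out, spots of a probe averaged, and log2(Cy5/Cy3) computed from the processed intensities, with no further centring. A probe was tested if it had 1 RefSeq symbol (69.6% of features), no Riken name, and signal called well above background, in Cy3 or Cy5, for at least 2 of every 3 arrays of the group. limma 3.58.1 (R 4.3.3) fitted lmFit and eBayes per group against 0, with Benjamini-Hochberg adjustment over all probes, after a test on simulated data. Shares of all genes use the brightest probe of a gene. One-channel values were log2 intensity minus the array's 75th percentile.

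Members and gene lists were chosen with earlier results of these data known. The text names the called members (6 highest and lowest where over 12), the 3 highest and lowest same-sign means per ratio group, and a list of members by role. Rpl24 and the genes whose other probes are given were chosen after their values were seen, as was the comparison with the Mg groups.

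Same-numbered Cy5 arrays of RV Mg and RV PBS shared slides and correlated at 0.23 to 0.52 in deviations from their group means, so numbers pair them; other groups share only a number. Alternatives covered background correction, centring, filter, test, slide, replicates, probes and series matrix. Values of a few single genes are not reported here. The number of arrays, 3 to 7 a group, limits the precision.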

Additional observations from a re-analysis of the deposited data

Results flagged for a closer look

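Of 40 checks for a single array far from the rest of its group, 1 met the criterion, where chance gives about 1 in 20. Rpl29, a large subunit protein, had a log2 ratio of 2.71 in Mg 12h replicate 2, with the other 3 arrays of the group at 0.09 to 0.29. The group mean of 0.85 ± 0.44 (SE, n = 4) did not pass the test. The other probe of Rpl29 had a Mg 12h mean of -0.17.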

How the results depend on the processing

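Of the settings other than left-out arrays, 98 counts of members called and 96 medians over the members stayed near the reported value and 52 and 19 moved. Most counts in this paragraph stand without the share of all genes called under the same setting. Such counts do not tell a change in the members from a change in all genes. In the order Mg 3h, 6h, 12h and 24h, the methods' t-test at an unadjusted p under 0.05 gave 29, 36, 21 and 27 members. It gave 23 and 18 in RV PBS 3h and 12h and 25 and 27 in RV Mg 3h and 12h. With adjustment it gave 2 in Mg 6h and 0 in RV PBS 3h and RV Mg 3h. Normexp with loess gave 8, 0 and 10 in Mg 3h, 6h and 12h, 42 and 9 in RV PBS 3h and 12h, and 26 and 19 in RV Mg 3h and 12h. Its medians were 0.13, 0.13, 0.13 and 0.23 in the Mg groups, 0.16 and 0.16 in RV PBS, and 0.078 and 0.081 in RV Mg. In 1 fit over all groups, which pools the spread, 4, 31, 16 and 9 members passed in the Mg groups, 5 and 11 in RV PBS 3h and 12h, and 21 and 16 in RV Mg 3h and 12h. In Mg 6h the count was 0 with centred arrays, with the series matrix, with the slide as a random block and without the filter on dim probes, and 20 without replicates 3 and 7. Without that filter RV PBS 3h and RV Mg 3h also gave 0. The mean over a gene's probes gave 4 and 3 in these groups and a median of 0.0095 in Mg 24h, and a fold change of at least 1.5 gave 1 in RV PBS 3h. Against the Mg groups, 1, 17, 11 and 7 members passed in RV PBS 3h, RV PBS 12h, RV Mg 3h and RV Mg 12h, with medians of -0.030, -0.058, -0.066 and -0.062. The means of Rpl35 (-0.21) and Rps14 (-0.18) in RV PBS 3h and of Rpl35 in RV Mg 3h (-0.16) then reversed, which the positive ratios of these genes in the Mg groups produce by construction. The cause of the other moves was not tested. The slide as a random block could not be fitted for Mg 12h, Mg 24h and the RV ratios. As a block it gave a median of -0.058 for the change of RV PBS from 3 to 12 h.

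Of the one-channel counts, Cy3 of RV Mg 3h gave 5 of 86 against the Mg controls alone (all genes 1448 of 14820). Cy3 of RV Mg 12h gave 71 against the Mg controls alone. Against the controls of both experiments its medians were 0.030 (quantile) and -0.032 (normexp). Cy5 at 3 h gave 1 under quantile normalization, 1 with the slide as a block and 10 under normexp, and Cy5 at 12 h a quantile median of -0.041. The 3 h controls gave 10 under quantile normalization. The 12 h controls gave 7 (median 0.028) under quantile normalization, 4 (0.40) under normexp and 27 without the filter. With the replicate block, Cy5 at 3 h gave 7, where the numbers pair the arrays. The control comparisons gave 0 at 3 h (all genes 0%) and 11 at 12 h (all genes 11.5%), where samples share only a number. The replicate block changed no other count by over 1.5 times.

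With 1 array left out, the count ran from 1 to 16 in RV Mg 3h, 0 to 2 in RV PBS 3h, 0 to 6 in RV PBS 12h, 0 to 18 between the 3 h controls and 22 to 56 between the 12 h controls, and was 0 in every other comparison, Mg 6h included. The medians over the members then ran from 0.02 to 0.06 in Mg 3h, 0.03 to 0.07 in Mg 6h, 0.02 to 0.05 in Mg 12h, 0.04 to 0.09 in Mg 24h, -0.01 to 0.04 in RV PBS 3h, 0.01 to 0.06 in RV PBS 12h, and -0.01 to 0.02 in RV Mg at both times. For the changes with time they ran from 0.02 to 0.05 (Mg 3 to 6 h), -0.05 to -0.01 (6 to 12 h), -0.01 to 0.03 (12 to 24 h), -0.02 to 0.02 (RV PBS) and -0.02 to 0.03 (RV Mg). In single channels they ran from -0.12 to 0.10 (Cy3 of RV Mg 3h), -0.24 to -0.03 (Cy5, 3 h), 0.09 to 0.35 (3 h controls), -0.82 to -0.56 (Cy3 of RV Mg 12h), -0.46 to -0.22 (Cy5, 12 h) and -0.74 to -0.51 (12 h controls). Signal over background limited Rpl3l, Rpl10l and Rpl39l.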
